A study of Mus musculus with 12 samples.

Results

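The genes described here are the replication-dependent histone genes of the mouse, taken as every gene row whose symbol is H1f followed by 1 to 5, or H2ac, H2bc, H3c or H4c followed by a number. The rule finds 66 of the 33696 gene rows: 5 linker histone H1 genes, 18 H2A, 18 H2B, 12 H3 and 13 H4 genes. The set was chosen by name, with results of these cells already known, so its overall pattern is given as a description. Live CD90.2-positive cells were sorted from tumours of MC38, a colorectal carcinoma line, in Kaede mice (genotype Kaedehet), whose cells hold a fluorescent protein that shifts from green to red under violet light. On day 14 the tumour-draining lymph node of every animal was photoconverted, and tumours then received 1 dose of 12 Gy aimed at the tumour (RT) or none (NT). Tumours were collected 24 h later (NT day 1 and RT day 1) or 72 h later (NT, RT, FTY720 and RT with FTY720, all day 3), where FTY720, 10 µg into the peritoneum on day 15, is a drug that holds lymphocytes in lymphoid organs. Each of the 6 conditions had 2 replicates, each a pool of 4 tumours, split by sorting into red and green cells and marked with hashtag antibodies. MC38 is 1 cell line, animals within a pool cannot be told apart, the magnetic step enriched CD4 and CD8 cells, and p-values measure the spread between pools only.

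Replication-dependent histones are made in bulk while DNA is copied, to package the new strands. H2A, H2B, H3 and H4 form the nucleosome core, and H1 binds the linker DNA between nucleosomes. The mRNAs of these genes end in a stem-loop bound by Slbp instead of a poly(A) tail and are degraded when DNA synthesis stops, although some members are also known to be made as polyadenylated RNA in cells that have left the cycle. The labels give the molecule as polyA RNA, so how completely stem-loop mRNAs were captured was not measured, and a low count is not a low abundance. Many members are near-identical copies, and reads that fit several copies may have been lost or split before the counts were made, so values of single members, above all of the rarer H2A, H2B, H3 and H4 genes, are uncertain. A UMI (unique molecular identifier) stands for 1 captured molecule whatever its length, so levels are compared as UMIs per 1000000 UMIs of the same cells (CPM), with no length scaling.

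The data were 61499281 UMIs in 2740 cells kept from 2816 barcodes in 4 droplet wells, at well medians of 17856.5 to 20915 UMIs a cell, and no barcode was shared between wells. Well pairs were not balanced: NT day 1, RT day 1 and NT day 3 of a replicate shared a well, and the other 3 conditions shared the other, which held 143 and 280 cells against 666 and 1651. By marker genes 1336 cells were CD8-like, 594 regulatory T (Treg)-like, 408 CD4 conventional-like and 319 naive CD8-like, while 58 fell in a naive CD4-like class and 25 in none. Markers of tumour epithelial cells stood between 9.65 and 38.3 CPM over the 12 pools, with Krt8, Krt19 and Krt20 at 0.

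The histone genes gave 72039 UMIs, or 1171 CPM, and 2636 cells (96.2%) had at least 1. Of the 66 genes 62 were detected, 26 of them with 100 UMIs or fewer. The 4 at 0 were H2ac1 and H2bc1, known as testis histones, H2bc23 and H3c15. A count of 0 in 2740 cells allows a share of up to 0.109% of cells with a UMI. The linker histones held the largest part, 44.8% of the histone UMIs from 5 genes, against 21.3% for H2A, 19.3% for H4, 7.69% for H3 and 6.85% for H2B.

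H1f4 (ENSMUSG00000051627) had 11783 UMIs, H4c4 (ENSMUSG00000061482) 11672 and H1f2 (ENSMUSG00000036181) 10950, together 47.8% of the histone UMIs. The 12 most abundant genes held 83.7%. The others among them were the linker genes H1f5 (5629 UMIs) and H1f3 (3127), the H2A genes H2ac8 (4917), H2ac4 (3770), H2ac20 (2696) and H2ac15 (1240), and the H3 genes H3c6 (2105), H3c7 (1348) and H3c3 (1064). The most abundant H2B gene, H2bc18, had 893.

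Abundance came in 2 forms. H1f2 was found in 2028 cells (74.0%), H4c4 in 1988 (72.6%) and H1f4 in 1747 (63.8%), at 5.40, 5.87 and 6.74 UMIs per cell with a UMI. H2ac4, in contrast, was found in 144 cells (5.26%) at 26.2 UMIs each, H1f5 in 334 cells (12.2%) at 16.9 and H2ac8 in 439 (16.0%) at 11.2. The largest count of 1 gene in 1 cell was 322 UMIs, for H4c4. H2ac20, in 940 cells (34.3%) at 2.87 UMIs, lay between these forms.

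The levels followed the cell cycle of the cell, measured with genes outside the set. Cells were ranked by 29 S phase genes (DNA replication enzymes such as Pcna and Mcm3 to Mcm7, leaving out Slbp) and cut into deciles of 274 cells. Histone UMIs stood between 493.2 and 580.3 CPM in the 8 lower deciles, at 862.6 in the ninth decile and at 3856 in the top decile, which held 58.9% of them. The top decile was also the deepest, with a median of 39300 UMIs per cell against 15663 to 22330.5 in the others, and the level is already per UMI. The median cell changed far less, from 3.74 to 4.62 histone UMIs per 10000 UMIs in the 9 lower deciles to 7.17 in the top one.

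**Figure D1:**
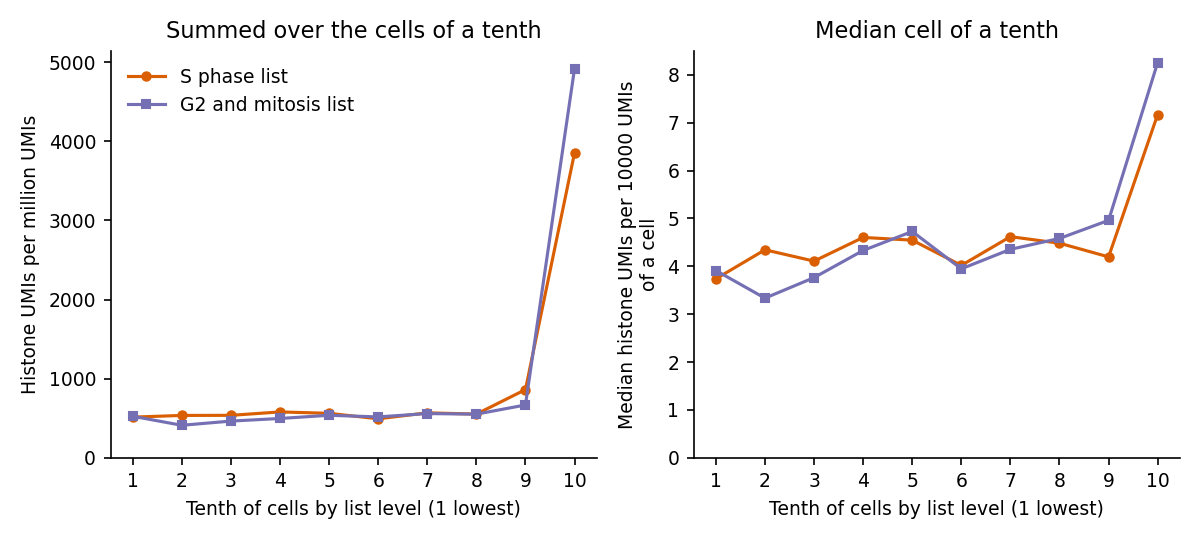
Summed histone level in CPM over the cells of each decile (left) and the histone UMIs per 10000 UMIs of the median cell (right), for cells ranked by the S phase list (orange) and by the G2 and mitosis list (purple). With the S phase list the summed level is 493.2 to 580.3 CPM in all deciles but the ninth and the top one (862.6 and 3856), and the median cell of the top decile is at 7.17. With the G2 and mitosis list the top decile is at 4920 CPM and its median cell at 8.26. Deciles 1 to 4 of the G2 and mitosis list share cells at or near 0 and have no order among them.

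The members differed in how far they followed it. For 57 genes with more than 3 UMIs in the 80% of cells lowest for the S phase list, the level in the top decile was 10 times or more that of the 80% for 27 genes, 2 to 10 times for 23 and under 2 times for 7. H2ac4 stood at 312.4 CPM in the top decile and 1.21 in the lowest 80%. H3c3 had 89.8 and 0.388, H2ac8 378.5 and 8.47, and H1f5 436.1 and 11.8. H1f3, another linker gene, had 196.2 and 17.3. The 3 widely found genes were also higher in the top decile, H4c4 at 558.3 against 98.2 and H1f4 at 473.1 against 126.0, with H1f2 the least changed of the 3 at 273.1 against 162.0. In 5 genes the level in the top decile was the lower: H2bc4 (4.45 against 5.68), H2bc27 (3.81 against 4.63), H2bc21 (1.18 against 1.76), H2ac25 (0.636 against 1.10) and H3c14, which had 8 UMIs in all. H2bc4 and H2bc21 are among the genes known to give polyadenylated RNA in non-dividing cells. Over families the top decile held 79.4% of the H2A UMIs, 72.7% of H3, 65.1% of H2B, 51.4% of H4 and 49.2% of H1. The top decile by the G2 and mitosis list held 98.6% of the H2ac4, 90.8% of the H2ac8 and 90.0% of the H1f5 UMIs. By the S phase list these shares were 91.2, 84.8 and 85.3%. For H3c1 the order was the other way, at 58.8 and 72.6%. Genes called S phase genes are named by the S phase list alone, and the 2 phases were not separated.

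**Figure D2:**
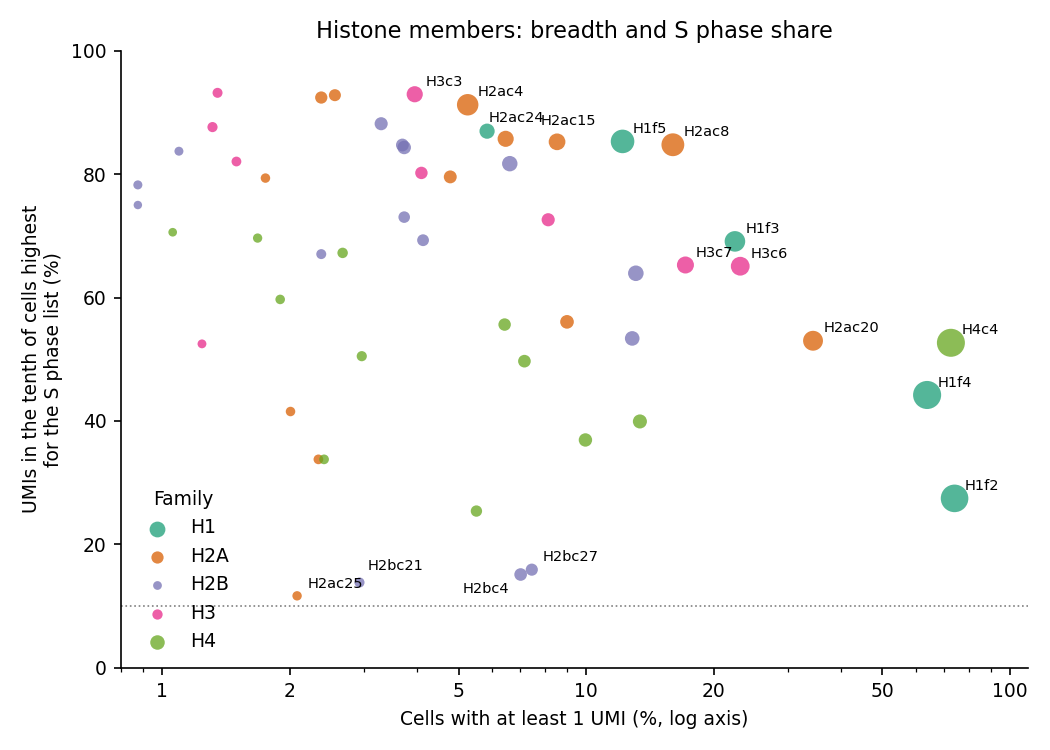
Each point is 1 histone gene with at least 20 UMIs, placed by the percentage of cells with a UMI (log axis) and by the percentage of its UMIs that lay in the decile of cells highest for the S phase list, with area growing with its UMIs and colour giving the family. The dotted line marks 10%, the share of cells. H1f2, H1f4 and H4c4 lie at the right, H2ac4 and H3c3 at the upper left, and H2bc4, H2bc27, H2bc21 and H2ac25 near the dotted line.

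The upstream sequences of genes from both forms are shown because the widely found and the S phase genes lie side by side in the same histone clusters. RefSeq promoters (build GRCm38.p6, not the build mm39 of the counts) were matched by symbol for 57 of the 66 genes, 49 on chromosome 13 and 8 on chromosome 3. The 120 bases before the annotated start are given 5′ to 3′ in the direction of the gene. Capitals mark 4 motifs on either strand. The first is CCAAT and the second is TATAAA. ATTTGCAT is the octamer known from H2B promoters. AAACACA is known from H1 promoters and was added to the search after the data were seen. The windows are H1f2 chr13:23738687-23738806 (plus strand), H1f4 chr13:23622559-23622678 (minus strand), H4c4 chr13:23581448-23581567 (plus strand), H1f5 chr13:21780626-21780745 (minus strand), H2ac4 chr13:23750968-23751087 (plus strand), H2ac8 chr13:23571221-23571340 (minus strand) and H3c3 chr13:23745522-23745641 (minus strand). The first 3 are the widely found H1f2, H1f4 and H4c4, and the other 4 are genes with their UMIs mostly in the top S phase decile.
H1f2: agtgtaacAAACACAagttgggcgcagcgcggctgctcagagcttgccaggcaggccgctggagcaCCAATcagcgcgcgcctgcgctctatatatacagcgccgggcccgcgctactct
H1f4: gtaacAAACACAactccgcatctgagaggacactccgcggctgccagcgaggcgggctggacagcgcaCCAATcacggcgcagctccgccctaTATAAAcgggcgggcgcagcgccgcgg
H4c4: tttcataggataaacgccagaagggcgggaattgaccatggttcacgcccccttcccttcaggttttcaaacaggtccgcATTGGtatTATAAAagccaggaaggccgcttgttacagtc
H1f5: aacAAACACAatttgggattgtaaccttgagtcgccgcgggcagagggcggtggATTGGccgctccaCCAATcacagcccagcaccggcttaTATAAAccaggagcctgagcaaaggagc
H2ac4: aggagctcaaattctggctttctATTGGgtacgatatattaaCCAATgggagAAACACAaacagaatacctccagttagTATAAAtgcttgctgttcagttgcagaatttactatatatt
H2ac8: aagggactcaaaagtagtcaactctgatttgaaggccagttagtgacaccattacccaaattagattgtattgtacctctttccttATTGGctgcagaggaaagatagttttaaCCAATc
H3c3: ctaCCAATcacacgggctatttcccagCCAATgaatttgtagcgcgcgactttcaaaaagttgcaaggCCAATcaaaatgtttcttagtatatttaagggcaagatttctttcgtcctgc

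The same letters stood before both forms. H1f2, the least S phase-bound abundant gene, and H1f5, among the most bound, each had AAACACA and CCAAT on the gene's strand in these 120 bases. Over the 250 bases before the start, CCAAT was found in 47 of 57 histone promoters (82.5%) against 33.8% of all 32851 promoters in the table. TATAAA was in 28 (49.1% against 12.4%), ATTTGCAT in 13 (22.8% against 1.601%) and AAACACA in 8 (14.0% against 6.25%). ATTTGCAT was in 7 of 14 H2B and 6 of 17 H2A promoters and in none of the H1, H3 or H4 promoters, and AAACACA in 4 of 5 H1 promoters. H2A and H2B genes often share 1 short region between them, so their windows overlap and are not independent. CCAAT was in 3 of 11 H4 promoters. Among genes raised 10 times or more in the top decile CCAAT was in 24 of 26 promoters and TATAAA in 15, and among those raised 2 to 10 times in 14 and 10 of 20. In both groups every promoter without CCAAT was of an H4 gene. These are matches of letters and not measured sites.

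Most of the histone UMIs sat in very few cells. Per cell, 2326 cells had under 10 histone UMIs per 10000 UMIs, 303 had 10 to 20, 44 had 20 to 30, 11 had 30 to 50 and 56 had 50 or more, of which 37 had over 100. The 56 cells at 50 or more, 2.04% of cells with 4.48% of all UMIs, held 53.1% of the histone UMIs and are called histone-high below. The limit was set after this distribution was seen, and 4 cells lay between 40 and 60. They had a median of 572.5 histone UMIs (highest 2372) against 9 in the other cells, at median depths of 47850 and 19967 UMIs. All 56 were in the decile of cells highest for the G2 and mitosis list, 52 were in the top S phase decile, and all 56 had UMIs of Mki67, a marker of cycling cells. The top S phase decile held 222 further cells below the limit. Clustering put all 56 into 1 cluster of 80 cells, which held several lineages, so their class rests on Cd8a, Cd8b1, Cd4 and Foxp3 counts of each cell. That rule returned the class of the cluster for 96.3% of cells in the clusters of 1 lineage. In 1 of the 56 cells 2 productive T cell receptor beta chains were found, which a doublet can give.

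The make-up of the histone RNA differed between these cells and the rest. In histone-high cells H2A made up 31.6% of the histone UMIs and H1 35.6%. In the other cells H2A made up 9.65% and H1 55.3%. H2A stood at 4386 CPM in histone-high cells and 55.5 elsewhere, H1 at 4947 and 317.8, H4 at 2163 and 135.9, H3 at 1318 and 32.6, and H2B at 1081 and 33.4. H2ac4 was found in all 56 cells, at 1313 CPM against 2.64 elsewhere. H1f5 was at 1694 against 16.4 and H2ac8 at 1562 against 10.5, while H1f2 was at 790.6 against 149.3. Genes for histones made outside S phase differed less: H3f3b, an H3.3 gene, stood at 1355 and 1085 CPM and H1f0, a linker histone of resting cells, at 102 and 82.6, whereas H2az1 stood at 1537 and 413.0 and H2ax at 408.9 and 30.5. Slbp, the stem-loop binding protein, stood at 322.1 and 104.7, and Npat, the activator of histone transcription, at 71.2 and 42.3. The limit was drawn on the histone UMIs, so these values describe the cells and are no test.

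By class the summed level was 1461 CPM in CD8-like, 1106 in Treg-like and 859.0 in CD4 conventional-like cells, against 551.6 in naive CD4-like and 456.8 in naive CD8-like cells. Histone-high cells were 42 of 1336 CD8-like cells (3.14%, 95% exact Clopper-Pearson interval 2.27 to 4.23%), 10 of 594 Treg-like cells (1.68%, 0.810 to 3.07%) and 3 of 408 CD4 conventional-like cells (0.735%, 0.152 to 2.13%). There were 0 of 319 naive CD8-like cells, which allows a share of up to 0.940%. The intervals cover counting error only. Without those cells the levels came within 510.0 to 639.4 CPM in the 3 classes other than the naive ones. H2ac4 was found in 5.1% of CD8-like and in 0% of naive CD8-like cells after each cell was thinned to 8000 UMIs, and H1f5 in 9.7% and 1.3%. H1f2 was found in 58.0% and 52.6%, and H1f4 in 52.6% and 38.5%. Thinning left out 87 CD8-like and 15 naive CD8-like cells, and the unthinned depths were alike, at medians of 22274 and 23282. H4c4 had its lowest share in Treg-like cells, 33.9% after thinning against 59.2% in CD8-like and 60.6% in CD4 conventional-like cells. The classes were drawn from the expression of the same cells, so none of these differences was tested.

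At day 1 the NT and RT pools of a replicate shared a well. Summed over CD8-like cells, the histone level was 3544 and 1372 CPM in the NT day 1 pools and 1057 and 1062 in the RT day 1 pools, from 104, 299, 110 and 202 cells. Both NT pools lay above both RT pools. Histone-high cells were 9 of 104 (8.65%, 95% interval 4.03 to 15.8%) and 14 of 299 (4.68%, 2.58 to 7.73%) in NT and 2 of 110 (1.82%, 0.221 to 6.41%) and 4 of 202 (1.98%, 0.542 to 4.99%) in RT. The median cell had 5.73 and 4.77 histone UMIs per 10000 in NT and 5.77 and 4.01 in RT, and the ranges overlapped. Without the histone-high cells the levels were 662.8 and 585.6 in NT and 660.9 and 499.3 in RT, which overlapped.

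H1f5 shows the pattern of the S phase genes. It had 399.2 and 140.3 CPM in the NT day 1 pools and 47.8 and 88.1 in the RT day 1 pools, a log2 difference of −1.94 ± 0.68 (SE, n = 2 pools each, adjusted p = 0.75 by edgeR's quasi-likelihood test with Benjamini-Hochberg adjustment). H2ac4 had 328.0 and 80.8 against 39.0 and 54.2 (−2.08 ± 0.77, adjusted p = 0.79 by edgeR). In both genes the groups did not overlap, and replicate 1 of NT stood far above replicate 2. H1f2 had 288.9 and 166.6 against 175.7 and 167.4, which overlapped. Of the 66 genes 41 passed the filter on low counts. None of the 41 passed the test, where edgeR called 0.0772% of all 10361 genes, 7 higher and 1 lower. By DESeq2 none of the 41 passed either. At an unadjusted p under 0.05 there were 19 of the 41, all lower, and 258 higher and 256 lower of all 10361 genes. In 23 of the 41 both RT pools lay below both NT pools, against 20.8% of all genes, and the members share their cells, so they are not independent of each other. Their median log2 difference was −1.34, against −0.0049 for all genes tested, and −0.19 over the 27 that passed the filter without the histone-high cells (−1.28 over the same 27 with all cells). The cells left out were chosen by their own histone UMIs, so a smaller difference without them, here and in the comparisons that follow, describes where the UMIs were and is no test. Without NT day 1 replicate 1 it was −0.43.

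**Figure D3:**
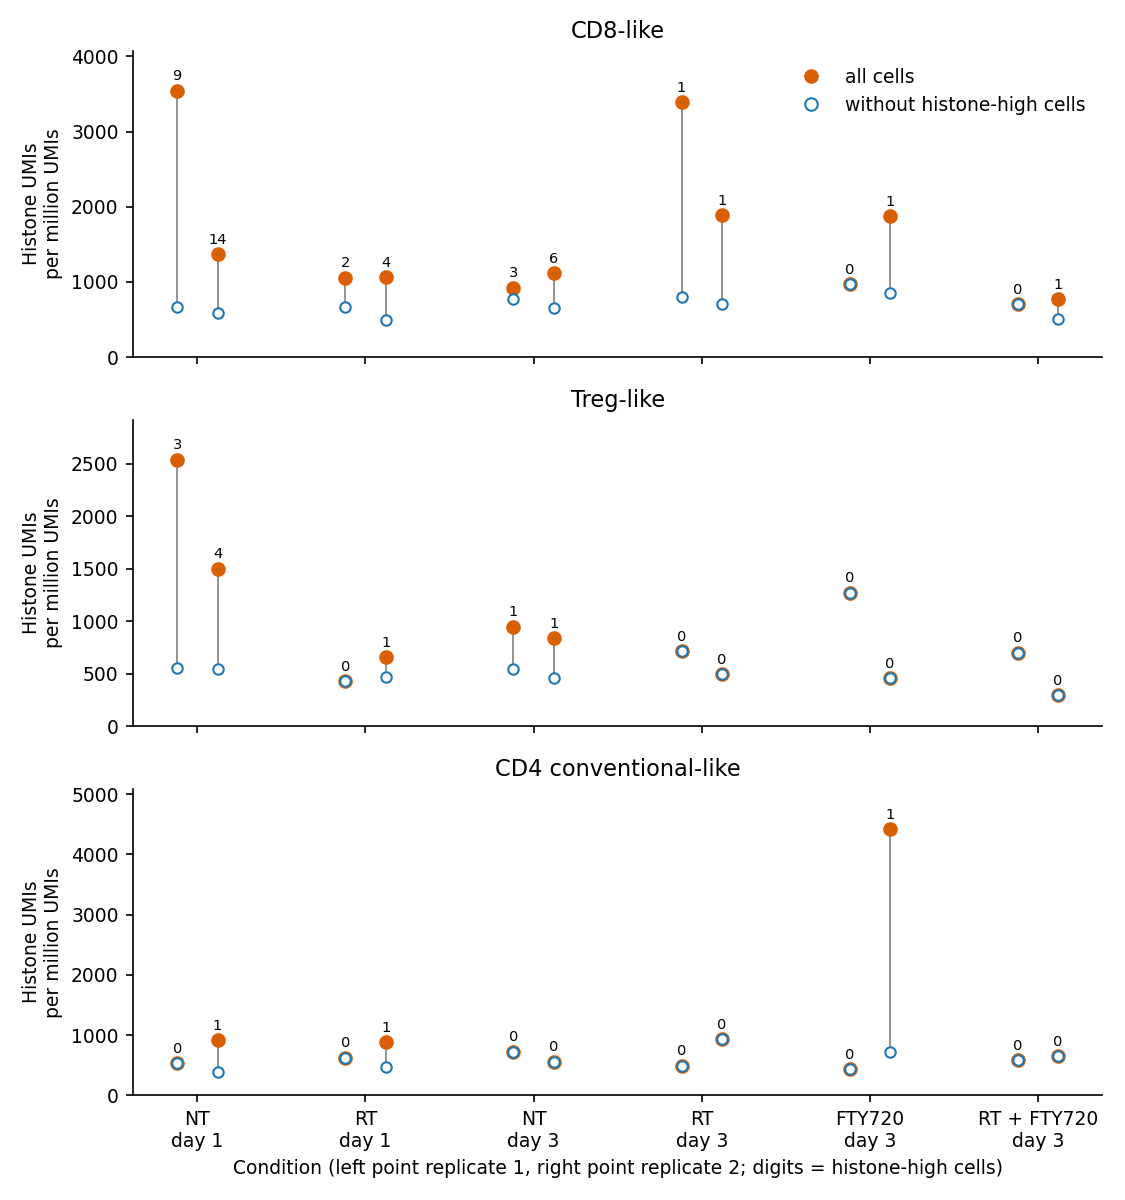
Summed histone level in CPM in each tumour pool by condition, in CD8-like (top), Treg-like (middle) and CD4 conventional-like cells (bottom). Filled points use all cells, open points leave out histone-high cells, and the digit is the number of histone-high cells in the pool. In CD8-like cells the pools range from 704.9 to 3544 with all cells and from 499.3 to 968.9 without the histone-high cells.

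In unirradiated tumours the CD8-like histone level was also lower at day 3 than at day 1. The NT day 3 pools had 925.7 and 1114 CPM, below both NT day 1 pools, with 3 histone-high cells of 143 and 6 of 256. H1f5 had 26.8 and 78.5 and H2ac4 10.5 and 52.7 CPM at day 3, below both day 1 pools. H1f4 had 178.3 and 233.2 against 430.1 and 217.1, which overlapped. No member of 41 passed the test by edgeR, which called 0.00965% of all genes, or by DESeq2, and 18 were lower at an unadjusted p under 0.05 (343 of all 10361 genes lower, 226 higher). In 23 of the 41 both day 3 pools lay below both day 1 pools, against 22.5% of all genes. The median log2 difference was −1.34, and 0.07 over the 27 tested without histone-high cells (−1.12 over the same 27 with all cells).

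At day 3 the CD8-like direction after radiation was the opposite, and in each RT pool 1 cell gave most of the histone UMIs. The RT day 3 pools had 3392 and 1884 histone CPM, from 26 and 45 cells, against 925.7 and 1114 in the NT day 3 pools, so both RT pools lay above both NT pools. A single red cell with 2372 histone UMIs of its 193818 UMIs gave 81.6% of the histone UMIs of RT day 3 replicate 1. A single red cell with 1142 of 39860 UMIs gave 64.2% of those of replicate 2. The shares of histone-high cells, 1 of 26 (3.85%, 95% interval 0.0973 to 19.6%) and 1 of 45 (2.22%, 0.0562 to 11.8%), overlapped those of NT day 3 (2.10% and 2.34%). Without these cells the levels were 805.5 and 703.8 in RT and 771.5 and 648.8 in NT, which overlapped.

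By edgeR 5 of the 41 members tested were higher in RT at day 3, where 4.54% of all genes were called. Of the 5, H2bc12 and H3c2 passed the low-count filter only with the RT day 3 pools, where they were high, so their calls are no support. H2ac8, an S phase H2A gene, had 302.3 and 179.1 CPM in the RT pools and 24.1 and 66.2 in the NT pools (log2 difference 2.45 ± 0.58, adjusted p = 0.035 by edgeR). H2ac13, another H2A gene, had 66.5 and 12.7 against 3.31 and 4.47 (3.36 ± 0.81, adjusted p = 0.036 by edgeR). H2ac22 had 24 and 11 UMIs in the RT pools and 4 and 1 in the NT pools, and H3c2 had 28 and 5 against 1 and 5. H2bc12 had 13 and 5 against 0 and 1, a ratio of 91.3 per UMI sequenced with a 95% counting interval of 14.4 to 3804. That interval takes UMIs as independent and does not measure the spread between cells or pools. The 13 UMIs of H2bc12 in replicate 1 came from 1 cell and the 5 in replicate 2 from 3 cells. H2ac13 was found in 2 and 3 cells of the RT pools. In 36 of the 41 members both RT pools lay above both NT pools, against 22.4% of all genes, and the median was 2.10. Without the histone-high cells none of 27 tested was called, by edgeR, and the median was 0.50 (1.97 over the same 27 with all cells). Leaving out either NT day 3 replicate, or RT day 3 replicate 1, left 0 called. The 6 conditions share 1 estimate of the spread, and leaving out other pools moved the count too: to 14 without either NT day 1 replicate, to 2 without either RT day 1 replicate, and to 8 without RT day 3 replicate 2 or either FTY720 replicate. The share of all genes called in those fits is not given, so these counts have no background beside them. RT day 3 and NT day 3 were in different wells, so radiation and well cannot be told apart here.

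Whether radiation acted differently at day 1 and day 3 was tested as a difference of the 2 effects. No member of 41 passed by edgeR, which called 0.232% of all genes, although 35 had an unadjusted p under 0.05, all with the lower effect at day 1, and the smallest adjusted p was 0.11. Of all 10361 genes 617 had the lower and 535 the higher effect at day 1 at that p. DESeq2 called 17, and 1.42% of all genes. The median of −3.46 (−3.10 over the 27 genes tested in both) was −0.47 without the histone-high cells, with none called. Without NT day 1 replicate 2 edgeR called 11, and without RT day 3 replicate 2 it called 1.

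With FTY720, both arms of the radiation comparison at day 3 were in the same wells. Here H1f4, the most abundant linker gene, fell. It had 258.7 and 280.2 CPM in the FTY720 pools and 93.4 and 92.5 in the RT with FTY720 pools, which did not overlap (log2 difference −1.504 ± 0.33, adjusted p = 0.032 by edgeR, where 3.02% of all genes were called). It was the only member of the 41 tested that passed. H1f2 had 239.2 and 210.7 against 257.4 and 132.0, which overlapped, and H4c4 had 180.6 and 353.6 against 175.4 and 226.6, which overlapped too. In 13 of the 41 both RT pools lay below both FTY720 pools, against 21.2% of all genes. The summed level was 968.9 and 1873 against 704.9 and 773.5 CPM. The higher value, of FTY720 replicate 2, held 1 histone-high red cell with 1305 histone UMIs, 56.25% of the pool's, and this was the cell with 2 beta chains. Without the histone-high cells H1f4 was still called (−1.29, adjusted p = 0.029 by edgeR), and so was the H2A gene H2ac20 (−1.69, adjusted p = 0.020 by edgeR). H1f4 was lower in all 21 alternative analyses, at −1.56 to −0.99, and was called in 15 of them. Without the cells of mixed clusters, without the cells with 2 beta chains, or without any 1 of the 4 pools compared, no member was called.

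No member of the 41 was called by edgeR for FTY720 itself, when the 2 conditions with the drug were averaged and set against the average of the 2 without it at day 3. That test called 0.00965% of all genes, and 8 members were lower at an unadjusted p under 0.05 (364 of all genes lower, 387 higher). DESeq2 called 1 member lower, and 0.154% of all genes. The FTY720 pools and NT day 3 were in different wells.

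**Figure D4:**
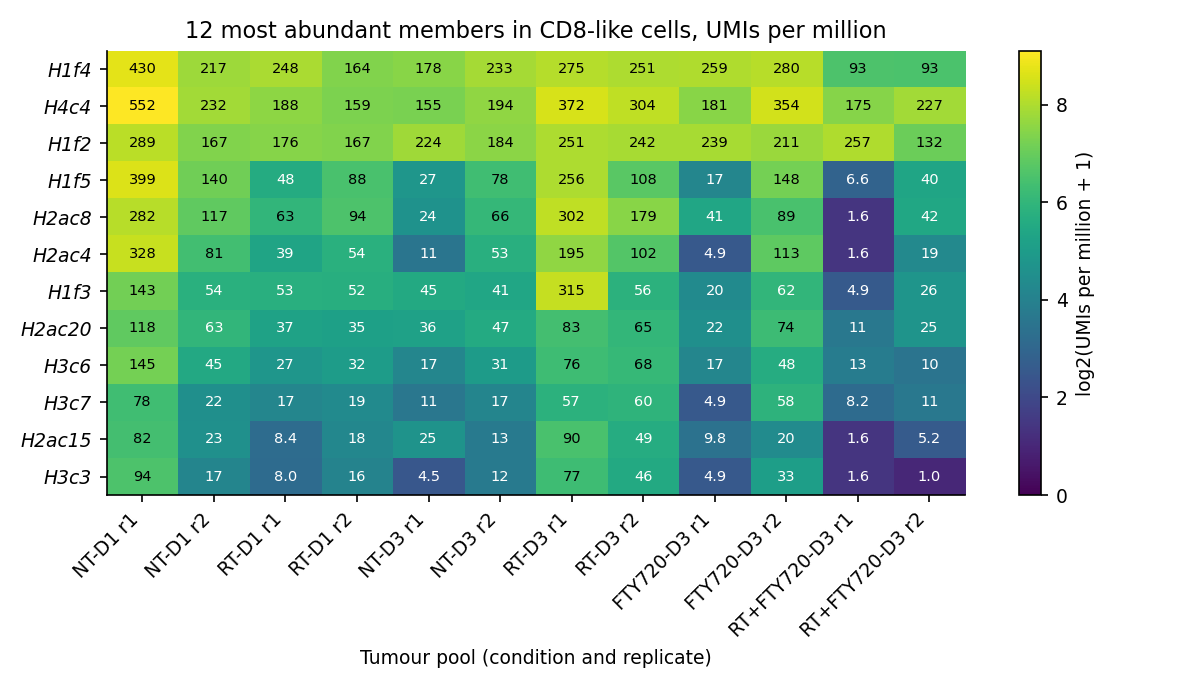
Heat map of the 12 most abundant histone genes (rows) in CD8-like cells of the 12 tumour pools (columns), with colour for log2(CPM + 1) and the CPM printed. H1f4, H4c4 and H1f2 stay above 92 in every pool, and the genes below them range widely, H2ac4 from 1.64 in RT with FTY720 replicate 1 to 328.0 in NT day 1 replicate 1.

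Averaged over the 3 strata (day 1, day 3, day 3 with FTY720), the radiation comparison in CD8-like cells of both colours together gave no call. In the day 3 stratum without FTY720 the groups were in different wells, here and in the comparisons over the 3 strata that follow. None of 41 was called by edgeR, where 7.60% of all genes were, with 2 at an unadjusted p under 0.05, both lower (1167 of all genes lower, 1093 higher). H1f4 came nearest (−0.57 ± 0.17, adjusted p = 0.065 by edgeR), and DESeq2 called 1 member of 41 lower, against 8.45% of all genes. Without histone-high cells H1f4 (−0.61, adjusted p = 0.023 by edgeR) and H2ac20 (−0.76, adjusted p = 0.013 by edgeR) were called lower. Without the cells of mixed clusters, without NT day 1 replicate 2 or without RT day 1 replicate 1, 1 member was called, also lower.

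The 2 colours were also fitted separately, with colours as the hashtag names give them. In replicate 2 these are the reverse of the tag numbers in the labels. In green CD8-like cells, which were sorted as not converted, 3 of 15 members tested fell, where 8.61% of all genes were called. Whether a green cell had been in the node was not measured. The RT day 3, FTY720 and RT with FTY720 pools held 10 to 26 green CD8-like cells each. RT day 3 and NT day 3 were in different wells. In the RT with FTY720 pools H1f4 had only 20 and 8 UMIs. H1f4 had 589.9, 252.8, 227.4, 276.1, 313.0 and 158.3 CPM in the pools without radiation (NT day 1, NT day 3 and FTY720, replicates 1 and 2 of each). It had 135.6, 154.7, 158.2, 150.03, 61.8 and 19.1 in the irradiated pools (RT day 1, RT day 3, RT with FTY720). The groups touched only through FTY720 replicate 2, at 158.3, and RT day 3 replicate 1, at 158.2, and did not overlap. The log2 difference was −1.57 ± 0.29 (adjusted p = 0.0098 by edgeR), and H1f4 was called lower in each of 21 alternative analyses, at −1.92 to −1.08. H2ac20 (−1.75 ± 0.41, adjusted p = 0.026 by edgeR) and H1f3 (−2.19 ± 0.57, adjusted p = 0.038 by edgeR) were called in 13 and 11 of 21. H1f3 had 219.7, 57.5, 67.9, 52.8, 17.2 and 43.3 CPM without and 18.7, 53.2, 13.2, 18.8, 3.09 and 4.77 with radiation, in the same order of pools, which overlapped. H1f4 alone of the 3 was called in all leave-one-out fits: the count was 1 without NT day 3 replicate 2, either RT day 3 replicate or either RT with FTY720 replicate, and 6 without NT day 1 replicate 2.

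In red CD8-like cells, which by their colour had been in the node and reached the tumour later, none of 34 members was called by edgeR, where 2.14% of all genes were, nor by DESeq2. There 2 members were higher at an unadjusted p under 0.05, and 680 of all 9410 genes. H1f4 stood at 301.8, 191.5, 121.6, 167.0, 186.9 and 394.7 without and 269.4, 171.0, 317.9, 303.1, 129.3 and 149.2 with radiation, which overlapped. The difference between the effects in the 2 colours, tested after the data were seen, passed for no member of 33 and for 0% of all genes by edgeR. At an unadjusted p under 0.05 there were 16 members, all with the higher effect in red, and of all 8821 genes 418 had the higher and 355 the lower effect in red. DESeq2 called 3 members, and 0.227% of all genes. Without RT day 3 replicate 1 or FTY720 replicate 2 edgeR called 1. H1f4 had a difference of 1.49 ± 0.35 (adjusted p = 0.31 by edgeR). Green irradiated CD8-like cells held 2 histone-high cells, both in RT day 1 replicate 2, and red ones 7. By the tag numbers in the labels those 2 cells would be red, and the red histone-high cells of replicate 2 would be green. Among the latter are the cells with the most histone UMIs in replicate 2 of RT day 3 and of RT with FTY720. Both counts therefore depend on the choice of colours. The median difference between the effects in the 2 colours, over the 12 members tested without histone-high cells, was 0.34. For the same 12 with all cells it was 1.53.

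**Figure D5:**
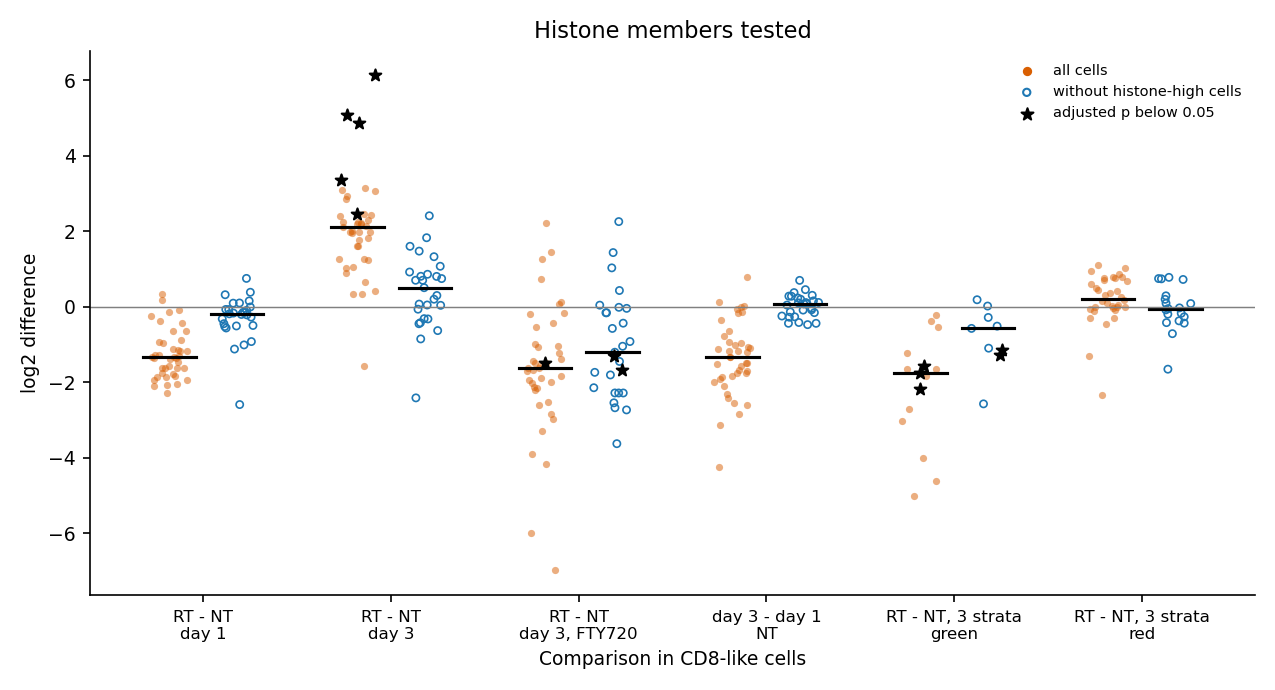
log2 differences of the histone genes tested in 6 comparisons of CD8-like cells. Orange points use all cells, blue open points leave out histone-high cells, stars mark genes with an adjusted p below 0.05 by edgeR, and bars are medians. The medians of −1.34 (RT against NT at day 1), 2.10 (day 3) and −1.34 (day 3 against day 1 in NT) are −0.19, 0.50 and 0.07 without the histone-high cells, which were chosen by their histone UMIs. Fewer genes, 27 in place of 41, pass the filter then.

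Between red and green cells of the same pool no member was called, by edgeR with the pool as a block. In CD8-like cells 0 of 33 members were called, where 6.59% of all genes were, with none at an unadjusted p under 0.05 and none by DESeq2. H1f4 was higher in red in 7 of 12 pools, namely every irradiated pool and FTY720 replicate 2, and H4c4 in 5 of 12. The fit takes 1 difference over irradiated and unirradiated pools together. In Treg-like cells 0 of 16 were called against 1.53% of all genes, with 3 higher in red at an unadjusted p under 0.05 (694 of all 8717 genes) and none by DESeq2. Without RT day 3 replicate 1, 1 was called. The median log2 difference there was 0.81, and −0.66 when the colours of replicate 2 were taken from the tag numbers in the labels. In CD4 conventional-like cells 0 of 10 were called against 0.121%, with 3 at an unadjusted p under 0.05 (of all 7453 genes 236 higher and 284 lower) and none by DESeq2.

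In Treg-like cells H1f4 was lower after radiation. Without radiation it had 368.7 and 256.4 (NT day 1), 225.7 and 162.3 (NT day 3) and 412.8 and 140.2 CPM (FTY720). With radiation it had 77.7 and 154.6 (day 1), 213.4 and 94.8 (day 3) and 23.1 and 44.3 (with FTY720). The values for RT with FTY720 rest on only 4 and 8 UMIs of H1f4, in pools of 10 and 13 cells. In replicate 1 of that condition 1 cell gave 90.1% of the histone UMIs. The groups overlapped, since 2 unirradiated pools, at 162.3 and 140.2, lay below the highest irradiated one. The log2 difference was −1.49 ± 0.33 (adjusted p = 0.047 by edgeR), the only call among 17 members, where 0.940% of all genes were called. It was lost in 11 of 21 alternatives, with the direction kept in all 21, and no member was called without the histone-high cells. The summed level was 2535 and 1499 CPM in NT day 1, with 3 and 4 histone-high cells, and 429.5 and 654.5 in RT day 1, with 0 and 1. The RT day 3 pools and those with FTY720 held 8 to 23 Treg-like cells each. The call was lost when any 1 of these pools was left out: replicate 1 of NT or RT at day 1, either NT day 3 replicate, RT day 3 replicate 2, FTY720 replicate 1 or RT with FTY720 replicate 2, and leaving out the other NT day 1 replicate gave 2 calls.

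In CD4 conventional-like cells 2 of 23 members were called lower after radiation, where 1.68% of all genes were: H4c4 (−0.72 ± 0.14, adjusted p = 0.022 by edgeR) and H1f3 (−1.43 ± 0.32, adjusted p = 0.041 by edgeR). The pool that stood apart for both was FTY720 replicate 2, a pool of 12 cells in which 1 green cell with 893 histone UMIs gave 85.8% of them. H4c4 had 900.6 CPM in that pool and 131.2 to 177.5 in the 10 others of the fit. FTY720 replicate 1, with 3 cells, was under the minimum of 5 cells and was left out of the fit. H4c4 was at 147.7 and 169.4 in NT day 1 and at 157.6 and 164.2 in RT day 1, which overlapped. Without the histone-high cells no member was called. The count was 0 without either RT day 1 replicate, either NT day 3 replicate or RT day 3 replicate 1, and 1 when replicate 2 of NT day 1 or of RT day 3, or either RT with FTY720 replicate, was dropped.

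Genes that make, cut and carry histones were read from lists, in CD8-like cells over the 3 strata, where 7.60% of all genes were called. Of 15 tested genes for histone mRNA synthesis and processing 1 was higher, Mif4gd (0.42 ± 0.12), which binds Slbp, and none lower. Slbp itself was at −0.09 and was not called in any comparison. Of 16 histone chaperone and chromatin assembly genes 2 were lower, the nucleosome assembly gene Nap1l1 (−0.64 ± 0.11) and the histone-binding helicase subunit Mcm2 (−0.53 ± 0.13). Of 9 replication-independent variant genes 2 were lower, H2az1 (−0.62 ± 0.13) and the H3.3 gene H3f3a (−0.25 ± 0.06). Of 30 S phase genes 6 were lower, among them Ung (−1.27), Pole (−1.03), Tyms (−0.83) and Gins2 (−0.82), and all 30 had a negative value, with a median of −0.58. Of 20 G2 and mitosis genes 2 were lower, Cenpe (−1.78) and Ube2c (−1.43), with a median of −0.86 (all genes tested, −0.02). Of 16 p53 targets 8 were higher, among them Phlda3 (2.32) and the cell cycle inhibitor Cdkn1a (2.12).

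In green CD8-like cells, where 8.61% of all genes were called, Mki67 fell (−2.16 ± 0.39, adjusted p = 0.0088 by edgeR) beside H1f4, with 4 of 14 G2 and mitosis genes, 6 of 29 S phase genes, H2az1 (−0.87 ± 0.15) and H2ax (−1.30 ± 0.33) lower. Of 13 p53 targets 6 were higher there. In red cells (2.14% of all genes called) 0 of 19 and 0 of 30 of the same cycle lists and 0 of 14 p53 targets were called. At day 3 without FTY720, where 5 histone genes were called higher, none of the 30 S phase and 20 G2 and mitosis genes was called (4.54% of all genes). Their medians were 0.31 and 0.53, and Mki67 was at 0.57 (adjusted p = 0.60 by edgeR).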

How the data were processed

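Transcripts, hashtags and T cell receptors were measured in 4 droplet wells. As deposited, the matrices give unnormalized UMI counts of each gene in each barcode, and the receptor tables give read and UMI counts of each contig. Per the submitters' processing notes they were made with Cell Ranger 8.0.1 on mm39. How reads that fit several genes were treated is not given in the sources used here. The members and all gene lists were chosen with earlier results of these data known.

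Barcodes under 500 genes or over 10% mitochondrial UMIs were dropped, and a hashtag was taken at 20 UMIs or more and 3 times the next. Hashtag names in the matrices set the colours. In replicate 2 they are the reverse of the tag numbers in the labels, which were run as an alternative. Cells were clustered (scanpy 1.11.5, leidenalg 0.10.2) and classed by marker genes, and cells of 3 mixed clusters (355 cells) by their lineage genes. No doublet caller was run, and an alternative analysis dropped the 90 cells that had 2 productive beta chains. UMIs were summed per pool and class over at least 5 cells (409751 to 8089640 UMIs per CD8-like pool) and tested with edgeR 4.0.16 (quasi-likelihood, low-count filter, Benjamini-Hochberg over all genes tested, threshold 0.05), with DESeq2 1.42.0 as an alternative. All conditions of a class shared 1 fit, and red against green had the pool as a block, since both colours came from the same tumours per the labels. Fits were tested on simulated counts in which only more abundant genes were changed. Rarer members, and UMIs held in single cells of a pool, were not covered by that check. Intervals cover counting error only.

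Named members are the 12 with the most UMIs and all that passed a test. From each list at most 4 called genes are named by size of change, with Slbp and Mki67. Other genes named, and the limit for histone-high cells, were chosen after their values were seen.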

Additional observations from a re-analysis of the deposited data

Results flagged for a closer look

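Among groups of 6 pools (without or with radiation, in 1 class), 30 were checked for a pool far from the others, and 10 had one. Chance alone gives about 1 in 20 groups only where values are normally spread. These groups mix conditions and the CPM were not put on a log scale, so that rate need not hold. Genes measured in the same cells are also not independent. NT day 1 replicate 1 stood apart in CD8-like cells without radiation: its summed histone level was 3544 CPM, against 925.7 to 1873 in the other 5 pools. The same pool stood apart for 7 of the 12 most abundant members, with H1f5 at 399.2 CPM, H2ac8 at 282.4, H2ac4 at 328, H1f3 at 142.8, H3c6 at 145.1, H2ac15 at 82.41 and H3c3 at 93.57. It held 9 histone-high cells among 104, and stood at 662.8 CPM without them. Among irradiated CD8-like pools RT day 3 replicate 1 stood apart for H1f3, at 315.1 CPM, in a pool where 1 cell gave 81.6% of the histone UMIs. In CD4 conventional-like cells FTY720 replicate 2 stood apart with a summed level of 4422 CPM, from 12 cells, and stood at 726.6 CPM without its 1 histone-high cell.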

How the results depend on the processing

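Counts of members called are given here. The share of all genes called is given beside them only for DESeq2 and for the run with no filter on low counts. For the other settings, and for all leave-one-out fits, a moved count cannot be set against a move in all genes. Of 238 log2 differences over 12 called pairs of gene and comparison, 151 stayed called, 85 did not pass and 2 turned sign: H1f3 (0.31) and H4c4 (0.097) in CD4 conventional-like cells without the cells of mixed clusters. With DESeq2 the count was 14 for radiation at day 3 (5 by edgeR), 2 with FTY720 (1), 1 over the 3 strata (0), 1 for FTY720 (0), 17 for the day 1 against day 3 effect (0), 3 in Treg-like cells (1), 7 in green cells (3) and 3 for red against green effects (0), where DESeq2 called 0.145 to 9.81% of all genes over 15 comparisons. With no filter on low counts it was 20 for radiation at day 1, 32 at day 3, 17 with FTY720, 22 for time in NT, 13 for FTY720, 33 for the day 1 against day 3 effect and 6 over the 3 strata, each of 61 tested. All genes were then called at 1.51, 4.77, 4.52, 1.28, 0.891, 2.44 and 6.67%, in that order. It was then 16 in green, 3 in red and 9 for red against green effects, 5 in Treg-like and 8 in CD4 conventional-like cells, and 1 (CD8-like) and 3 (Treg-like) for red against green, against 0.658 to 6.76% of all genes. Without the cells of mixed clusters it was 0 at day 3, 0 with FTY720, 1 over the 3 strata, 1 in green, 0 in Treg-like and 0 in CD4 conventional-like cells. Without histone-high cells it was 0 at day 3, 2 with FTY720, 2 over the 3 strata, 1 for red against green CD8-like cells, 0 in Treg-like and 0 in CD4 conventional-like cells, and 2 of 9 tested in green cells (3 of 15 with all cells). Without cells with 2 beta chains it was 9 at day 3, 0 with FTY720, 1 in red and 2 for red against green effects. Cells classed one by one gave 3 at day 3 and 1 in CD4 conventional-like cells. At least 10 cells per sum gave 0 in Treg-like and 1 in CD4 conventional-like cells. The cause of these moves was not tested.

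Leaving out 1 pool gave 0 to 14 at day 3, 0 to 1 with FTY720, 0 to 1 over the 3 strata, 0 to 11 for the day 1 against day 3 effect, 0 to 2 in Treg-like, 0 to 3 in CD4 conventional-like and 1 to 6 in green cells. It gave 0 to 1 for red against green Treg-like cells and 0 to 1 for red against green effects. Replicate numbers did not pair the pools (correlations of deviations from −0.108 to 0.118 over 15 pairs of conditions). A replicate block gave 6 at day 3 and 1 in CD4 conventional-like cells, and moved no other count of the radiation, time and FTY720 comparisons. Dropping the pool block from red against green moved no count. The histone level was 859.2 CPM in cells thinned to 8000 UMIs (1171 unthinned), and the top decile held 61.2% of histone UMIs when ranked by the G2 and mitosis list (58.9% by the S phase list). Pools with 1 histone-high cell or none limit what day 3 can show.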

Other observations

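H3c1, an H3 gene with 398 UMIs, had 72.6% of them in the top S phase decile and 30.9% in histone-high cells. H2ac4 had 91.2% and 95.9%.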
